A study of Mus musculus with 13 samples.

Results

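The Ikaros family was read through every probe set (a group of array probes that gives 1 value) whose only annotated symbol was Ikzf1, Ikzf2, Ikzf3, Ikzf4 or Ikzf5. This rule found 19 probe sets of the 5 genes, of 80657 probe sets on both array types together. Of these, 13 lay on the Affymetrix 430 2.0 array and 6 on the Mouse Gene 1.0 ST array. No probe set annotated to several genes named a family member. The RNA came from B3, a mouse pre-B cell line, transduced with retroviral vectors that also carry GFP behind an internal ribosomal entry site.

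On Gene 1.0 ST, the groups were HA-tagged Ikaros fused to ERt2 (the estrogen receptor's hormone-binding domain) after 2 h of 4-hydroxytamoxifen (3 arrays), the same line after 6 h (3 arrays), and an ERt2 vector line after 6 h (3 arrays). All 9 of these samples had 4-hydroxytamoxifen, so no Ikaros-ERt2 sample without it was available as a baseline, and vector cells were not sampled at 2 h. On 430 2.0, HA-tagged wild-type Ikaros (2 arrays) was set against HA-tagged 159A, an Ikaros mutant deficient in DNA binding (2 arrays), both at 48 h after infection and with no empty-vector sample among these arrays. Per the titles the arrays of a group are biological replicates; whether each is a culture of its own is not stated, and the p-values then reflect only how far these arrays differ, which may be technical. For vector-ERt2 replicate 1, a label field gives the inducible Ikaros construct, while its title and description name the vector, and the title was followed.

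Ikaros family proteins are zinc-finger transcription factors of the blood lineages. Fingers near the amino terminus bind DNA, which for Ikaros has a GGGA core. A pair of fingers at the carboxy terminus joins family members to each other. A form with this pair but without DNA binding can thus hold back its partners. Ikzf1 (Ikaros) is needed for lymphoid development and for the passage beyond the large pre-B cell stage. Ikzf3 (Aiolos) is known for its role in the same passage and in mature B cells, Ikzf2 (Helios) and Ikzf4 (Eos) for their roles in regulatory T cells, and Ikzf5 (Pegasus) is a more distant and widely expressed member.

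Promoter sequence from RefSeq (GRCm38.p6) was available for 3 starts of 2 members, Ikzf1 and Ikzf5, which are the members read well above the low end of the arrays. The sequences are shown because DNA binding is what separates wild-type Ikaros from 159A. Which start these cells use was not measured. Each line gives the 250 bases before a start, 5′ to 3′ on the gene's strand, with capitals for GGGAA or its reverse complement TTCCC. The windows are chr11:11685675-11685924 and chr11:11689927-11690176 on the plus strand for Ikzf1, and chr7:131410479-131410728 on the minus strand for Ikzf5. Both Ikzf1 windows lie inside the annotated gene, which begins at 11684962, so its outermost start is not covered. The Ikzf5 window overlaps its annotated gene, whose span ends at 131410518.
Ikzf1 upstream start: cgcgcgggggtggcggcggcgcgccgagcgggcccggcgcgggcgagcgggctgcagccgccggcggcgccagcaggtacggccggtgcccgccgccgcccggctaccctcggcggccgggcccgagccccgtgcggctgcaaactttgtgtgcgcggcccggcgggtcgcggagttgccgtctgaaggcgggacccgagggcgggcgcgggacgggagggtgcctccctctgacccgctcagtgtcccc
Ikzf1 downstream start: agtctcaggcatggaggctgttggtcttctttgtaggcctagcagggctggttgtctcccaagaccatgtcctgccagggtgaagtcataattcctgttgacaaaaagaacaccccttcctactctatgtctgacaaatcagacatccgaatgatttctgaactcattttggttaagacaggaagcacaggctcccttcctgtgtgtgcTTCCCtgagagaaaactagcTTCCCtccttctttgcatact
Ikzf5: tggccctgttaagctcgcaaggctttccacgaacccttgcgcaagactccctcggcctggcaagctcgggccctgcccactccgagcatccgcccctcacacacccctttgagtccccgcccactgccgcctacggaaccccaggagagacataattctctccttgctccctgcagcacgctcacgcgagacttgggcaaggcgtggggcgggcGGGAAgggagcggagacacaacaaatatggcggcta
The upstream Ikzf1 window, with 82.0% G and C, held no match. The downstream Ikzf1 window held 2 matches, which begin 41 and 21 bases before the start, and the Ikzf5 window held 1 match, which begins 36 bases before it. Of 32851 mouse promoter windows of the same length, 56.2% held GGGAA on either strand, so a match is common. The longer TGGGAA, which overlaps GGGAA and was held by 21.6% of windows, was in none of the 3. A match describes the letters of the window only.

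The cells read as pre-B cells on both array types. Of 10 pre-B marker genes found on each array, 10 on 430 2.0 and 9 on Gene 1.0 ST lay above the median probe set of their array, the exception being Rag1 on Gene 1.0 ST. On 430 2.0, 5 of 6 T cell markers, 3 of 3 natural killer markers and 2 of 3 erythroid markers were near the lowest value in both groups. All 6 myeloid markers were near it in Ikaros cells, against 5 of 6 in 159A cells, and of 4 fibroblast markers 3 were near it in Ikaros cells, against 4 in 159A cells. On Gene 1.0 ST, which has no shared low value, 3 of 4 fibroblast markers and 1 of 6 T cell markers lay above the median probe set, and no myeloid, erythroid or natural killer marker did. Over the 10 pre-B markers on Gene 1.0 ST, the sum of log2 values was 96.1 to 97.0 in Ikaros-ERt2 cells at 2 h and 94.8 to 95.2 at 6 h, against 97.8 to 99.2 in vector cells. At 6 h over vector cells, the log2 changes of single markers ran from -1.17 (Vpreb1) to 0.32 (Ebf1) among the 9 tested. Limma called 4 lower and 0 higher, where 2.99% and 2.36% of all tested probe sets were. The change of Ebf1 was not called (limma adjusted p = 0.137). On 430 2.0, the sum over 10 markers was 122.0 to 123.7 in Ikaros cells, against 120.9 to 122.4 in 159A cells. These close sums hide large opposite changes, from -5.92 (Igll1) to 3.37 (Rag1) on the log2 scale among the 10 tested. Limma called 2 markers higher and 2 lower, where 3.78% and 5.38% of all tested probe sets were. The part of these sums in the results below was not tested. In bulk RNA, fewer cells that express a gene and less RNA of it per cell cannot be told apart.

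Ikzf1 itself was far higher in Ikaros-ERt2 cells, where its single Gene 1.0 ST probe set (10374333) reads the cell's own and the transduced transcript together. Its log2 values were 13.40, 13.22 and 13.22 at 2 h and 13.31, 13.22 and 13.25 at 6 h, against 9.16, 9.25 and 9.39 in vector-ERt2 cells. The lowest Ikaros-ERt2 array lay far above the highest vector array. The group means were 13.28 ± 0.10 at 2 h, 13.26 ± 0.04 at 6 h and 9.27 ± 0.12 in vector cells (SD, n = 3 each). Set against vector cells, the Ikzf1 log2 change was 4.01 ± 0.08 SE for the 2 h arrays (limma adjusted p = 6.0e-10), a ratio of 16.1. For the 6 h arrays the log2 change was 3.99 ± 0.08 (adjusted p = 6.3e-10), a ratio of 15.9. In both comparisons Ikzf1 ranked 1 of 13073 tested probe sets by size and by p. These cells carry an added Ikzf1 construct, so a higher value than in vector cells was built into the design. The p-values and ranks therefore do not test regulation of the family. Whether Ikzf1 responds to 4-hydroxytamoxifen was not tested, since no untreated Ikaros-ERt2 sample was available.

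Of the 5 family probe sets tested on Gene 1.0 ST, the Ikzf1 one was the only one called at 2 h, where 1.65% of all tested probe sets were called, and likewise at 6 h, where 5.35% were called. Both comparisons use the same 3 vector arrays. Without vector-ERt2 replicate 1, the array with the conflicting label, the Ikzf1 log2 change was 3.96 at 2 h and 3.94 at 6 h. Between the times Ikzf1 did not differ beyond the spread (6 h over 2 h, log2 change -0.02, 95% interval -0.20 to 0.16, limma adjusted p = 0.953). Of the 9 arrays, 3 shared the value 13.2233 (2 h replicates 2 and 3, 6 h replicate 2). What these ties do to the spread was not tested. In order of level, 2 h and 6 h were thus not separated, and vector cells stood apart below them. Over all 21789 probe sets with 1 symbol, none had a wider range over the 9 arrays than Ikzf1, 4.24 log2 units against a median of 0.36.

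**Figure D1:**
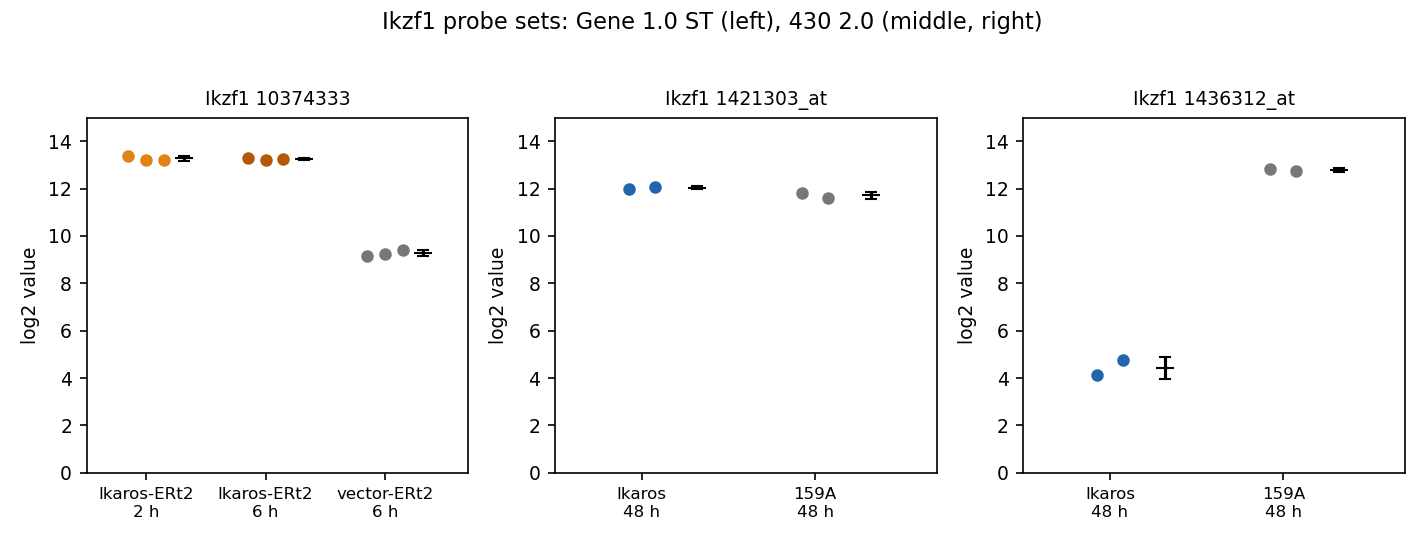
Log2 values of the 3 Ikzf1 probe sets on each array (points, by group on the horizontal axis), with the group mean and SD beside them. Probe set 10374333 is near 13.2 in Ikaros-ERt2 cells and near 9.3 in vector cells, 1421303_at is near 12 in both 48 h groups, and 1436312_at is below 5 in Ikaros cells and above 12 in 159A cells.

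The 430 2.0 array has 2 Ikzf1 probe sets, and at 48 h 1 of them had no called change while the other was far lower in Ikaros cells. Probe set 1421303_at, which the annotation ties to an Ikzf1 RefSeq transcript, read 12.00 and 12.08 in Ikaros cells, against 11.82 and 11.61 in 159A cells. The difference was not called (log2 change 0.33 ± 0.11 SE, 95% interval -0.03 to 0.69, limma adjusted p = 0.205). Probe set 1436312_at, tied by the annotation to another Ikzf1 sequence record, read 4.11 and 4.77 in Ikaros cells, against 12.83 and 12.73 in 159A cells. It was 324-fold lower in Ikaros cells (log2 change -8.34 ± 0.29, 95% interval -9.32 to -7.36, adjusted p = 0.0229), which ranked 3 of 20975 tested probe sets by size.

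Both values of 1436312_at in Ikaros cells lay more than 1 log2 unit above the array's lowest value of 2.19, and the mean over all 4 arrays, 8.61, lay far above the filter on low values at 2.29. Of the 5 family probe sets tested at 48 h, 1436312_at was the only one called, where 9.16% of all tested probe sets were called and 5.38% were lower. Its direction held in each of 10 alternatives. The call was lost when any 1 array was left out, which leaves 1 group with a single array (adjusted p = 0.0992 and 0.0899 without Ikaros replicate 1 and 2, and 0.199 and 0.195 without 159A replicate 1 and 2), with no filter on low probe sets (adjusted p = 0.0637), and with the replicate number as a block (adjusted p = 0.0719). Without any 1 array limma called 0 probe sets in all, with 3753 to 6113 at an unadjusted p under 0.05.

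The gap between the log2 changes of these probe sets was 8.67. Among 5363 genes with more than 1 tested probe set on this array, the median gap was 0.49, and no other gene had a gap as large as that of Ikzf1. The next was Igfbp4, at 7.81. Where in the Ikzf1 transcript the probes lie is not given in the sources used here. Which transcript, the cell's own or the transduced one, each probe set reads was not tested. Both 48 h groups carry an added Ikzf1 construct, so a difference between the constructs and a change of the cell's own gene cannot be told apart. An Ikzf1 value that averages both probe sets would have been -4.01 on the log2 scale, which describes neither of them.

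**Figure D2:**
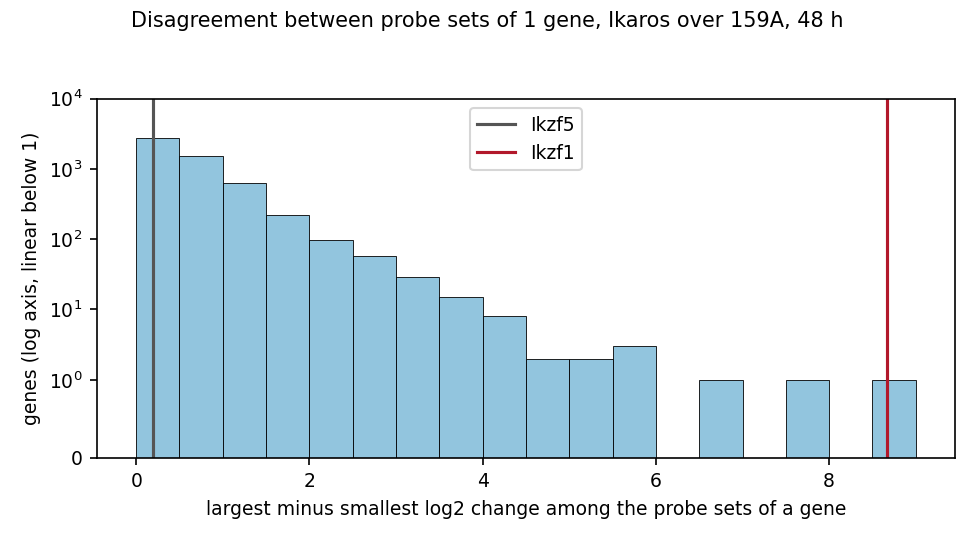
Genes with more than 1 tested probe set on 430 2.0 (bars, log vertical axis) by the gap between the largest and smallest log2 change of their probe sets, Ikaros over 159A at 48 h. Ikzf1 (red line, 8.67) lies at the far right end and Ikzf5 (grey line, 0.19) in the first bar.

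Ikzf5 was the other family member with clear signal, and no change was called for any of its 4 probe sets in any comparison. On Gene 1.0 ST, probe set 10497996 read 8.48, 8.38 and 8.57 in Ikaros-ERt2 cells at 2 h and 8.72, 8.57 and 8.68 at 6 h, against 8.56, 8.49 and 8.67 in vector cells. The vector arrays overlapped with both other groups, and the highest 2 h array and the lowest 6 h array had the same value. Its mean was 0.18 higher at 6 h than at 2 h on the log2 scale (95% interval 0.00 to 0.35, unadjusted p = 0.0461, adjusted p = 0.356), a comparison in which 0.75% of tested probe sets and none of the 5 tested family ones were called by limma; this was the only family probe set with an unadjusted p under 0.05 there.

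The second Ikzf5 probe set, 10568529, read 8.70, 8.40 and 8.76 at 2 h and 8.37, 8.85 and 8.59 at 6 h, against 8.78, 8.45 and 8.60 in vector cells. Its groups overlapped fully, and 6 h over 2 h gave a log2 change of -0.02 (95% interval -0.32 to 0.28). That interval also takes in the 0.18 of the first probe set. Against vector cells, the intervals of both Ikzf5 probe sets lay between -0.31 and 0.31 log2 units at both times.

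At 48 h, Ikzf5 probe set 1429431_at read 9.56 and 10.46 in Ikaros cells, against 10.12 and 10.17 in 159A cells. The Ikaros arrays lay on either side of the 159A arrays, and the interval was wide (log2 change -0.14, 95% interval -1.46 to 1.19, adjusted p = 0.891). Probe set 1436554_at read 7.50 and 7.09 in Ikaros cells, against 7.29 and 7.19 in 159A cells (log2 change 0.05, 95% interval -0.59 to 0.69, adjusted p = 0.924), again with the Ikaros arrays on either side. The gap between the Ikzf5 log2 changes was 0.19, and 4243 of the 5363 genes had a gap at least as large.

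**Figure D3:**
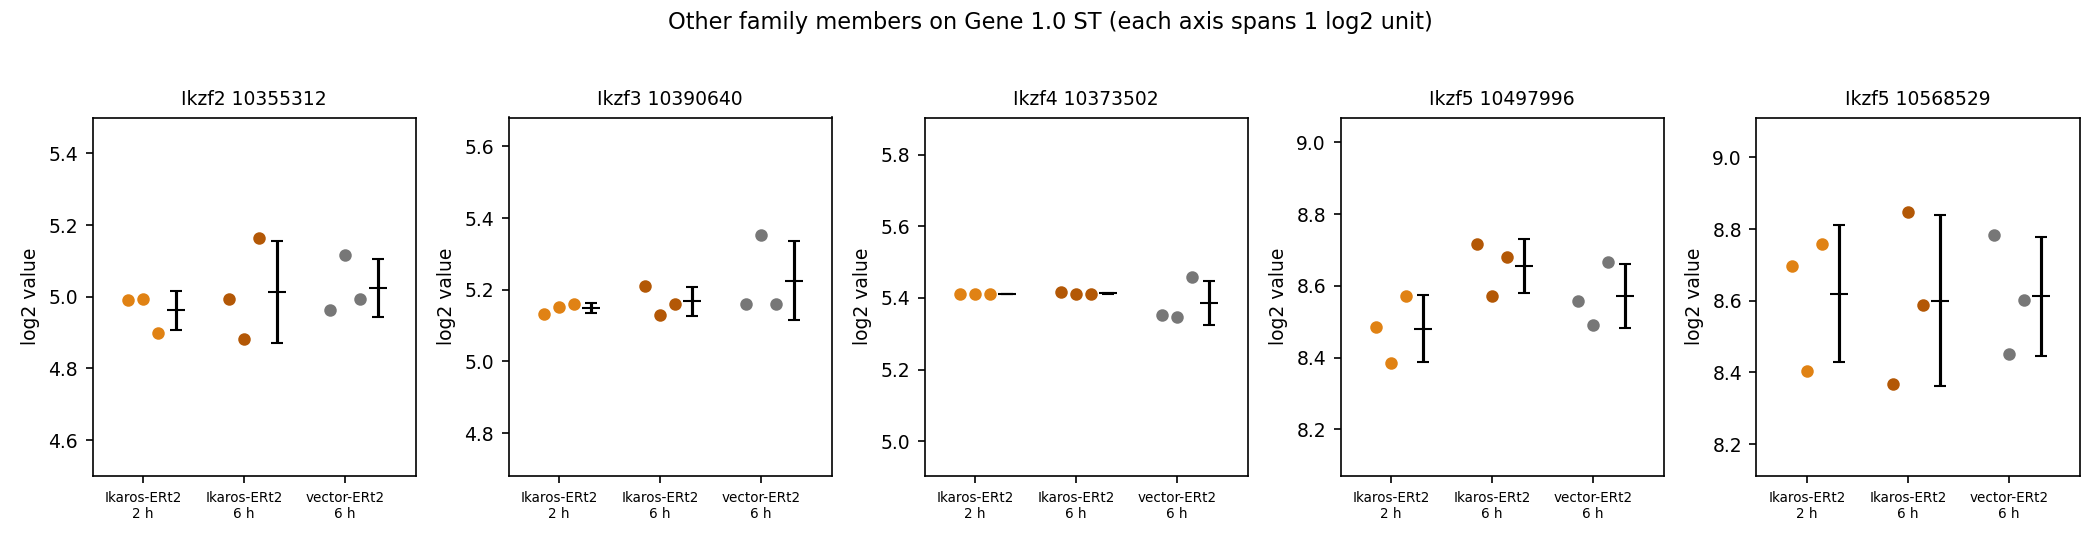
Log2 values of the Ikzf2 to Ikzf5 probe sets on each Gene 1.0 ST array (points, by group), with group mean and SD; each vertical axis spans 1 log2 unit around the probe set's mean. In each of the 5 probe sets the vector arrays overlap with the Ikaros-ERt2 arrays, and the means of any 2 groups differ by at most 0.18.

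Ikzf3, whose protein Aiolos acts beside Ikaros in B cells, gave low values on both array types. On Gene 1.0 ST, probe set 10390640 read 5.13, 5.15 and 5.16 at 2 h and 5.21, 5.13 and 5.16 at 6 h, against 5.16, 5.35 and 5.16 in vector cells. Vector replicate 2 was the highest array, and the other 8 lay between 5.13 and 5.21. The log2 change was -0.08 at 2 h (95% interval -0.23 to 0.08, adjusted p = 0.723) and -0.06 at 6 h (-0.21 to 0.10, adjusted p = 0.787). Its mean lay at the 41.5th percentile of probe sets with 1 symbol, just above the filter on low values.

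On 430 2.0, Ikzf3 probe set 1441088_at read 3.43 and 2.96 in Ikaros cells, against 2.84 and 2.98 in 159A cells, with 3 of the 4 values within 1 log2 unit of the array's lowest. The log2 change of 0.28 was not called (95% interval -0.44 to 1.01, adjusted p = 0.511). Probe sets 1436649_at and 1453378_at had the same value on all 4 arrays, 2.20 and 2.19. Ikzf3 was therefore not measured above the low end in either 48 h group by these 2 probe sets.

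Ikzf2 and Ikzf4 stood at the low end of the 430 2.0 array, while on Gene 1.0 ST Ikzf2 lay under the filter on low values and Ikzf4 above it. For Ikzf2, Gene 1.0 ST probe set 10355312 read 4.99, 4.99 and 4.90 at 2 h and 4.99, 4.88 and 5.16 at 6 h, against 4.96, 5.12 and 4.99 in vector cells. It fell under the filter, at the 37.7th percentile, and was tested only with no filter, where the log2 change was -0.06 at 2 h (95% interval -0.24 to 0.12, adjusted p = 0.866) and -0.01 at 6 h (-0.19 to 0.17, adjusted p = 0.984). All 3 Ikzf2 probe sets on 430 2.0 (1421643_at, 1437542_at and 1456956_at) stood at the array's lowest value, 2.19, on all 4 arrays.

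For Ikzf4, Gene 1.0 ST probe set 10373502, whose mean lay at the 45.7th percentile, read 5.41 on all 3 arrays at 2 h and 5.42, 5.41 and 5.41 at 6 h, against 5.35, 5.35 and 5.46 in vector cells. The vector arrays lay on either side of the Ikaros-ERt2 arrays, and the log2 change was 0.03 at both times (95% intervals -0.11 to 0.16 each, adjusted p = 0.909 at 2 h and 0.901 at 6 h). Of its 9 deposited values 5 were identical, which 9.04% of probe sets on this array share or exceed, and its SD at 2 h was 0. On 430 2.0, probe sets 1438274_at and 1460664_at stood at 2.19 and 1457342_at at 2.27 on all 4 arrays.

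**Figure D4:**
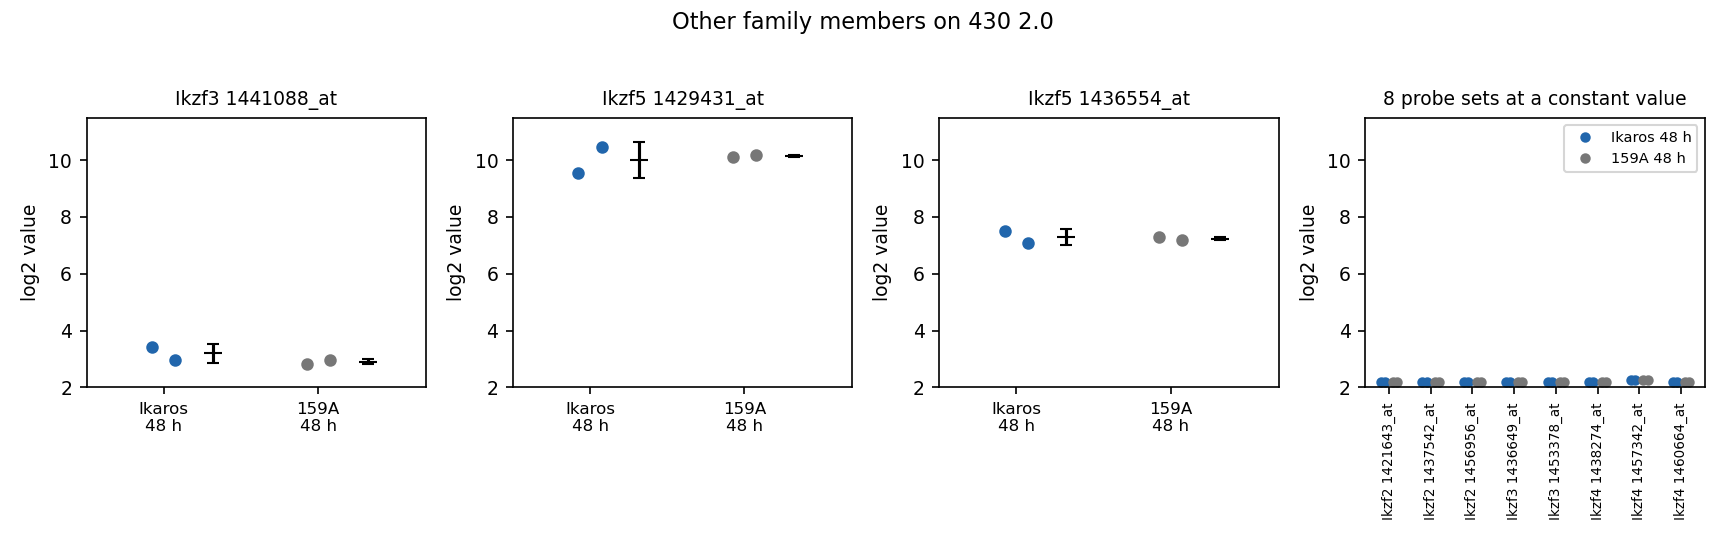
Log2 values of the 11 Ikzf2 to Ikzf5 probe sets on each 430 2.0 array (points), with group mean and SD in the first 3 panels. Both Ikzf5 probe sets lie between 7 and 11 in both groups, Ikzf3 1441088_at lies near 3, and the other 8 stand at 1 constant value each, between 2.19 and 2.27.

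In all, 8 of the 13 family probe sets on 430 2.0, all of them of Ikzf2, Ikzf3 and Ikzf4, had identical values on the 4 arrays, as did 35.3% of all 34958 probe sets with 1 symbol there. Such a value has no spread, so no change at these probe sets could be tested, and a level below the array's low end cannot be told apart from none. Of the 19 family probe sets, 10 passed the filter on low values, 5 on each array type. They gave 20 tests in all, 3 of which were called, each of them at an Ikzf1 probe set. Of all tested probe sets, 9.16% were called at 48 h, 1.65% at 2 h, 5.35% at 6 h and 0.75% between the times. The calls at 2 h and 6 h were of the transduced gene against the same 3 vector arrays, a difference built into the design. The call at 48 h was of the transduced gene as well, since both groups there carry an added Ikzf1 construct. It held in 4 of 10 alternatives.

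**Figure D5:**
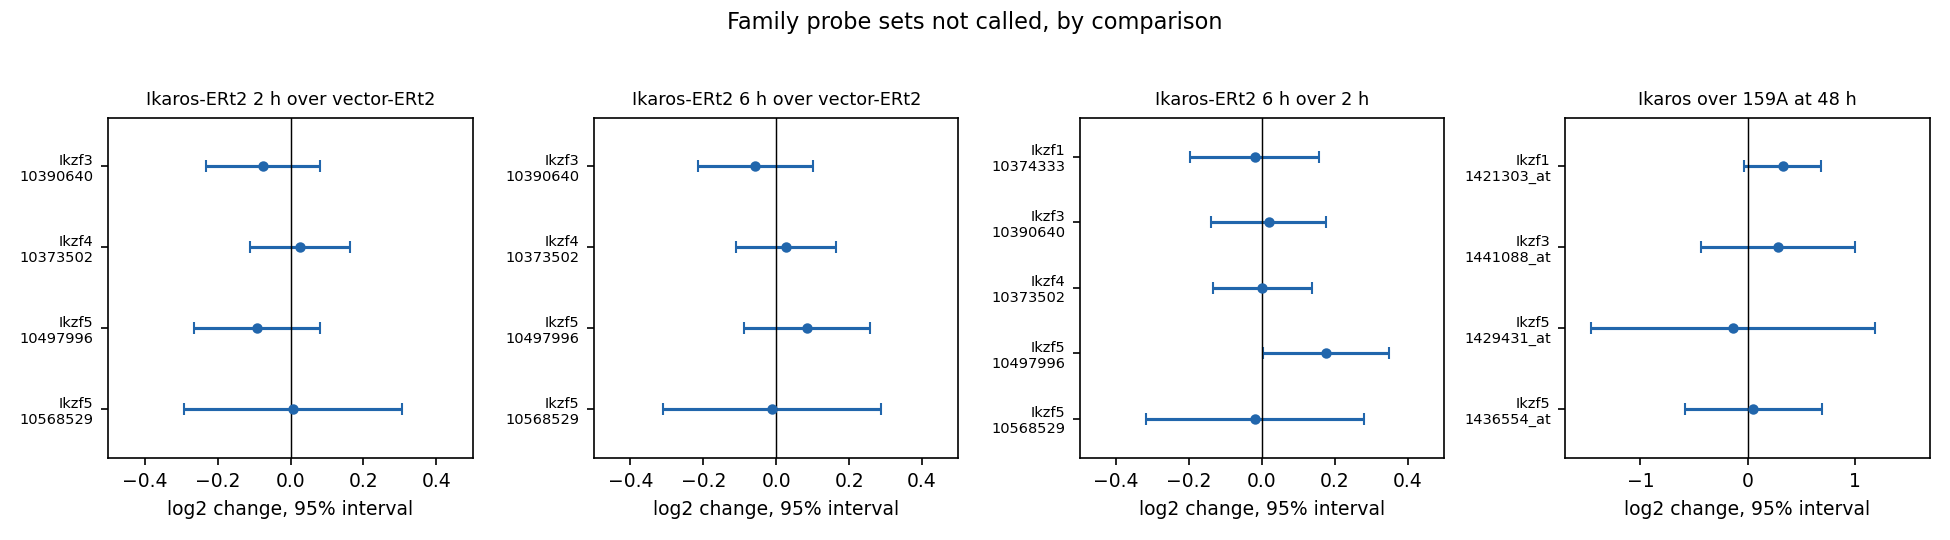
Log2 changes with 95% intervals (limma) of the family probe sets that were tested and not called, by comparison; the horizontal axis of the 48 h panel is wider than that of the others. On Gene 1.0 ST every interval lies between -0.32 and 0.35, whereas at 48 h the intervals reach from -1.46 to 1.19.

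The genes most like each member over the 9 Gene 1.0 ST arrays were taken by Pearson r among 11902 tested genes, as a description. For Ikzf1 they were Sdc4 (r = 0.983), a cell-surface proteoglycan gene, the receptor gene P2ry10 (r = 0.980) and the kinase gene Prkcd (r = 0.969). Each of these had its lowest group mean in vector cells, for example 11.7 at 2 h and 11.8 at 6 h, against 11.0 in vector cells, for Sdc4. The 9 arrays are 3 groups with 1 large step in Ikzf1, between vector and Ikaros-ERt2 cells, so these r values mostly compare 2 levels. The other members varied little, and each r is the highest of many over 9 arrays: the nearest gene was Rnf180 for Ikzf2 (r = 0.981), Stard8 for Ikzf3 (0.947), Arhgap26 for Ikzf4 (0.940) and Rer1 for Ikzf5 (0.941, by probe set 10568529), over ranges of only 0.28, 0.22, 0.11 and 0.48 log2 units.

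Ikaros acts with chromatin regulators, and a partner list held 19 genes. They were subunits of the NuRD and Sin3 complexes, the CtBP corepressors, Smarca4 and Rbbp8. All but Rbbp8, 18 of 19, were tested in each comparison. At 48 h, 1 rose and 1 fell, where 3.78% of all tested probe sets were higher and 5.38% lower. With 1 probe set per gene, as for the list, limma called 696 of 10916 higher and 925 lower. Calls were thus common among all genes, and whether the list differs from other genes was not tested. Mbd2, a methyl-CpG binding subunit, read 12.13 and 12.00 in Ikaros cells, against 10.20 and 10.16 in 159A cells (log2 change 1.88 ± 0.07, adjusted p = 0.0229). Rbbp7, a histone-binding subunit, read 13.96 and 14.11 in Ikaros cells, against 14.83 and 14.95 in 159A cells (-0.86 ± 0.09, adjusted p = 0.0483). Both calls were lost, as all were, when any 1 array was left out and with the replicate number as a block. The list's median change was 0.04 beside 0 over all tested probe sets.

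No partner gene was called by limma at 2 h or between the times. At 6 h, where 2.36% of tested probe sets were higher and 2.99% lower, 1 rose, Smarca4, the ATPase of a BAF remodelling complex, at 10.29, 9.94 and 10.26 in Ikaros-ERt2 cells, against 9.86, 9.74 and 9.78 in vector cells (log2 change 0.37 ± 0.10, adjusted p = 0.0491). Its call was lost without any 1 of 5 arrays (adjusted p = 0.109 to 0.193) and held only without Ikaros-ERt2 6 h replicate 2 (0.00695). The median change of the list was 0.08 at 2 h and 0.05 at 6 h, beside -0.0057 and -0.0019 over all tested probe sets.

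A second list held 18 genes reported as tied to Ikaros in pre-B cells, among them Igll1 and Vpreb1 of the surrogate light chain. It was chosen with results of these data known, so its counts beside the shares of all probe sets are no test of it. At 2 h, 2 of 15 tested genes rose and 2 fell (0.665% and 0.987% of all tested probe sets), and at 6 h 3 rose and 7 fell (2.36% and 2.99%). At 48 h, 4 of 17 rose and 6 fell (3.78% and 5.38%), and limma called none of these with any 1 array left out or with the replicate number as a block. These shares are over probe sets. With 1 probe set per gene, as for the list, limma called 696 of 10916 higher at 48 h and 925 lower. Between the times 1 of 15 rose and 3 fell (0.321% and 0.428%). None of these was called by limma with only the 2 groups in the fit. The calls with the smallest p were Myc, Lig4 and Foxo1 at 2 h (log2 changes -1.32, 1.34 and 0.67), Vpreb1, Myc and Igll1 at 6 h (-1.17, -1.46 and -1.07), and Ccnd2, Igll1 and Rag1 at 48 h (-3.05, -5.92 and 3.37). These genes were picked by their small p, so they are no measure for the family. The tested probe sets of family genes other than Ikzf1 had log2 changes of -0.09 to 0.08 against vector cells and of -0.14 to 0.28 at 48 h, with none called. The 0.28 was of Ikzf3 1441088_at, which was near the array's lowest value on 3 of 4 arrays.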

How the data were processed

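RNA of 13 samples was measured on 2 Affymetrix array types. The deposited log2 values are 1 per probe set and array; per the submitters' processing notes the authors used GCRMA, RMA, affy and limma, without saying which tool served which array type. On the 430 2.0 array, 36.7% of values lay within 0.01 of the lowest value. Tests stayed within an array type, since normalization was separate, and levels were not set against each other across types; the number of arrays limits the precision.

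Gene names came from the platform annotation. On 430 2.0, 34958 had 1 symbol, 932 several and 9211 none here; on Gene 1.0 ST, 21789, 1621 and 12146. Checking gene numbers against RefSeq changed 0 symbols. Every probe set with 1 symbol was used, except those in the lowest 40% by mean, which left 20975 and 13073. The linear model was fitted with lmFit and moderated with eBayes of limma 3.58.1 under R 4.3.3 (two-sided; a call is a Benjamini-Hochberg adjusted p under 0.05 over all tested probe sets). The 4 comparisons were Ikaros against 159A, Ikaros-ERt2 at 2 h and at 6 h against vector, and 6 h against 2 h, the last 3 from 1 fit of the 9 Gene 1.0 ST arrays. The fit was tested on simulated data. A list gene was read by its probe set with the highest mean. A value within 1 log2 unit of the array's lowest was called near it.

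All family probe sets are named, with at most 3 called genes per list and comparison (smallest p) and the nearest genes by r. The members and lists were chosen with earlier results of these data known. Igfbp4 was named after its value was seen. The alternatives were other filters, 1 value per gene, further normalization, another variance model, the replicate number as a block, 2-group fits and each array left out.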

Additional observations from a re-analysis of the deposited data

How the results depend on the processing

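Of 268 results of family probe sets under alternatives, 261 stayed on their side of the threshold, 20 of them with the opposite sign and uncalled both times. Ikzf1 at 2 h and 6 h was called in each of 15 alternatives (log2 change 3.95 to 4.07 and 3.94 to 4.05). For Ikzf1 1436312_at the call held in 4 of 10 (adjusted p = 0.00856 to 0.199 over all, 0.0719 with the replicate block), and the cause was not tested beyond the fewer arrays. Averaging the probe sets of a gene turned the change of Ikzf1 1421303_at from 0.33 to -4.01 (adjusted p = 0.0184), because 1436312_at enters the mean.

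The count of called probe sets at 48 h was 1921; it was 95 with no filter. With any 1 array left out it was 0 by limma (3753 to 6113 at an unadjusted p under 0.05). At 2 h it was 216, 141 with no filter and 76 to 193 with 1 array left out. At 6 h it was 700, and 325 to 627 with 1 left out. Between the times it was 98, and it was 56 with no filter, 159 with quantile normalization again, 55 with centred arrays, 0 by limma with only the 2 groups in the fit (1409 at an unadjusted p under 0.05) and 8 to 170 with 1 array left out. The causes were not tested.

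The replicate numbers are not said to mark a shared culture or day. Deviations from group means of same-numbered arrays had r = 0.55 at 48 h, where 2 arrays a group make both pairs give 1 value, which does not settle whether the numbers pair the arrays. On Gene 1.0 ST it was -0.25 to 0.25 (9 pairs). The block is thus an alternative only; with it the counts were 0 at 48 h by limma (7208 at an unadjusted p under 0.05), 267 at 2 h, 659 at 6 h and 109 between the times.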
